A study of Mus musculus with 10 samples.

Results

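Described here are 6 genes for cyclin-dependent kinase (CDK) inhibitors, of 20579 genes in the deposited table, in mouse intestinal cells with and without p57Kip2. The genes were taken by symbol and are the Cip/Kip genes Cdkn1c (p57Kip2), Cdkn1a (p21) and Cdkn1b (p27), and the INK4 genes Cdkn2b (p15), Cdkn2c (p18) and Cdkn2d (p19). All 6 passed the filter on low counts. The INK4 gene Cdkn2a is not analysed here. The question was whether the other inhibitor genes differ when Cdkn1c is lost.

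Cells positive for green fluorescent protein driven by the Hopx promoter were sorted from intestines of embryos late in gestation (E18.5), and total RNA was sequenced. The 10 libraries comprised 5 from p57 knockout intestines, labelled p57KO, and 5 from wild-type intestines, labelled p57WT. Both groups carried the Hopx reporter and the strain label C57BL6/J / 129S4. The design of the knockout allele, and whether any embryos were littermates, is not given in the sources used here.

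CDK inhibitors are small proteins that hold back the kinases which drive cells from G1 into DNA replication. Cip/Kip proteins bind complexes of cyclins with several CDKs, while INK4 proteins bind CDK4 and CDK6 and keep the D cyclins off them. Cdkn1c is imprinted and is expressed mainly from the maternal allele. In the gut epithelium these inhibitors are known for restraining the division of crypt cells and for the cell cycle exit of differentiating cells.

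Total counts per library ran from 8037887 to 26809231, with 4 of the 5 shallowest labelled p57WT. Features within ribosomal RNA repeats took 0.0301% to 0.435% of counts in p57KO 1 to 4 and p57WT 2, and 9.47% to 17.03% in the other libraries. A number of unstated meaning also stands in the labels. It is 607 for p57KO 1, p57KO 2 and p57WT 1, but 608 for the other p57KO and 740 for the other p57WT libraries, so it is nearly confounded with genotype. Markers of several cell types separated the genotypes. The summed level of 18 epithelial markers was 9775 to 18178 CPM in p57KO and 3243 to 7806 CPM in p57WT, where CPM is the counts-per-million level after TMM (trimmed mean of M-values) scaling; 15 of the 18 rose and 0 fell. Summed smooth muscle markers, of which 10 of 10 fell, ranged over 4719 to 32158 CPM in p57KO against 48570 to 96835 CPM in p57WT. Summed myeloid markers, 8 genes of which 6 could be tested and 6 rose, ranged over 192 to 8616 CPM in p57KO, with p57KO 2 the highest, against 13.3 to 128 CPM in p57WT, where Mmp8, Csf3r, Itgam and Ly6g were at 0 in at least 1 library. Erythroid markers were also higher in p57KO (6 of 6 tested) and fibroblast markers lower (4 of 6). Over all genes, the test given below called 19.3% higher and 17.2% lower. Summed endothelial, enteric neuron and glia, and reserve stem markers overlapped between the genotypes. Of the tested endothelial markers 0 of 3 were called, and of the enteric neuron and glia markers 2 of 6 fell. Among 5 reserve stem markers, which include Hopx, 1 rose and 1 fell. Hopx, the gene of the sort, ranged over 127 to 199 CPM in p57KO against 60.4 to 78.1 CPM in p57WT. The epithelial gene Epcam (522 to 2769 CPM) and the smooth muscle gene Actg2 (1956 to 36153 CPM) were present in every library. In bulk RNA of this kind, fewer cells of a type and less RNA per cell cannot be told apart. Library p57KO 2 stood apart, with the highest Cdkn1a, Cdkn2b and Cdkn2d levels and the highest summed epithelial, myeloid and erythroid markers. What these markers contribute to the differences below was not tested.

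Loss of Cdkn1c was accompanied by higher RNA of a pair of other inhibitor genes, 1 from each family. Cdkn1a was 4.35 times and Cdkn2b 4.97 times higher in p57KO. Cdkn1b, Cdkn2c and Cdkn2d did not pass the test. The test was the quasi-likelihood test of edgeR, with a call where p, adjusted by Benjamini-Hochberg over 16710 genes, was below 0.05. Of these genes 36.5% were called, 19.3% higher and 17.2% lower in p57KO. The 2 inhibitor genes that rose and the 1 that fell are to be read against that wide background. The increases of Cdkn1a and Cdkn2b were at least 4-fold, a size that 4.77% of the genes tested reached with a call in that direction.

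**Figure D1:**
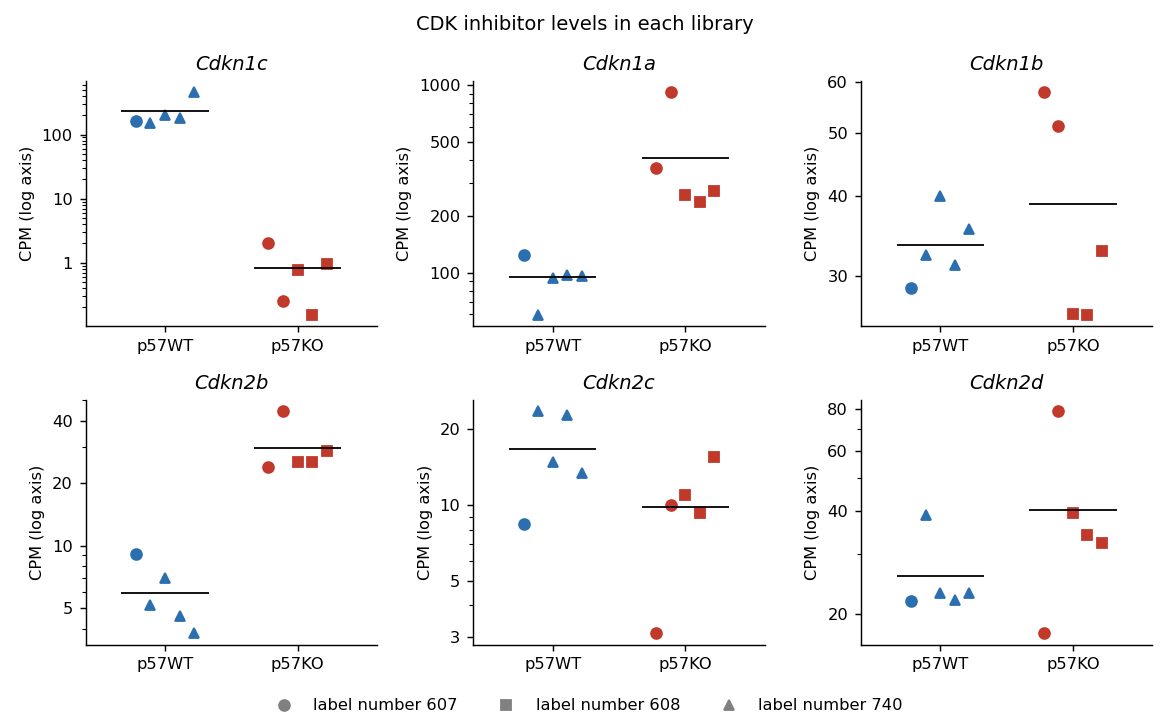
CPM (log axis) of each inhibitor gene in 5 p57WT (blue) and 5 p57KO (red) libraries, with the mean as a line and the symbol giving the label number. The genotypes do not overlap for Cdkn1c, Cdkn1a and Cdkn2b, and overlap for Cdkn1b, Cdkn2c and Cdkn2d.

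Cdkn1c (ENSMUSG00000037664, chr7:143458339-143461050, minus strand, GRCm38) was the gene targeted and checks the labels. The p57KO libraries 1 to 5 held 2.06, 0.25, 0.77, 0.15 and 0.96 CPM, from 24, 6, 22, 4 and 11 counts. In p57WT 1 to 5 it was 164, 151, 198, 181 and 458 CPM. All p57KO libraries were thus far below all p57WT libraries, and p57WT 5 stood above the other p57WT libraries. This was a log2 fold change of -8.21 (SE 0.69, edgeR adjusted p = 9.99e-05), with 12.7% of genes showing p57KO values all below p57WT. The few remaining counts were not assigned to a part of the gene. An antisense gene overlaps 892 bases of Cdkn1c, and reads of the 2 strands cannot be told apart because the strand setting is not given.

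Cdkn1a (ENSMUSG00000023067, chr17:29090976-29100727, plus strand) encodes p21, a broad CDK inhibitor and a classical target of the tumour suppressor p53. In p57KO 1 to 5 its level was 362, 916, 261, 239.6 and 271 CPM. In p57WT 1 to 5 it was 125, 59.6, 93.4, 97.3 and 96.5 CPM. The strands cannot be told apart here either, where 1046 bases overlap a gene on the other strand. Every p57KO library was above every p57WT library, with p57KO 2 highest and p57WT 2 lowest. Mean levels were 410.1 ± 287 CPM in p57KO and 94.3 ± 23.1 CPM in p57WT (SD over 5 libraries). On the log2 scale Cdkn1a rose by 2.12 with an SE of 0.39 (95% limits 1.28 and 2.96, edgeR adjusted p = 0.00170). An exact two-sided permutation test of the mean CPM gave p = 0.00794, the smallest value that 5 libraries against 5 allow. The same value was found for Cdkn1c and Cdkn2b among the 6 genes tested in this way, with no adjustment. Groups that do not overlap were found for 24.2% of all genes tested, 11.5% with p57KO above p57WT.

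The size of the Cdkn1a difference moved with p57KO 2, the library with the highest summed epithelial, myeloid and erythroid markers. Without it the increase was 1.59 on the log2 scale, and without p57KO 1 it was 2.17. Without both it was 1.498 (edgeR adjusted p = 9.97e-04). With a term for the label number, so that p57KO 1 and p57KO 2 are set against p57WT 1, it was 2.36 (edgeR adjusted p = 0.0351). That fit has 1 p57WT library of this number, which is assumed to vary like the other libraries. Scaled to the epithelial markers it was 0.63, short of the threshold (edgeR adjusted p = 0.131), where the median of all genes was at -1.38 instead of 0.08. A smooth muscle covariate gave 0.57 (edgeR adjusted p = 0.430) and a myeloid covariate 0.57 (edgeR adjusted p = 0.557), and the genotypes overlap in neither marker sum.

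Cdkn2b (ENSMUSG00000073802, chr4:89306299-89311039, minus strand) encodes p15, an inhibitor of CDK4 and CDK6 known as a target of transforming growth factor beta. In p57KO 1 to 5 it stood at 23.8, 44.6, 25.4, 25.2 and 28.6 CPM. In p57WT 1 to 5 it stood at 9.11, 5.22, 7.02, 4.58 and 3.79 CPM. The groups did not overlap, and 4 of the 5 p57KO libraries lay within a narrow range below p57KO 2. Mean levels were 29.6 ± 8.62 CPM in p57KO and 5.94 ± 2.13 CPM in p57WT (SD over 5 libraries). Cdkn2b rose by 2.31 on the log2 scale with an SE of 0.31 (95% limits 1.65 and 2.98, edgeR adjusted p = 3.68e-04). Without p57KO 1 and p57KO 2 it was 2.21 (edgeR adjusted p = 4.57e-04). Scaled to epithelial markers it was 0.95 and still passed (edgeR adjusted p = 0.0204), and a smooth muscle covariate gave 1.84 (edgeR adjusted p = 0.0310). It missed the threshold with the label number as a term (1.91, edgeR adjusted p = 0.0650) and with a myeloid covariate (1.99, edgeR adjusted p = 0.0584).

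**Figure D2:**
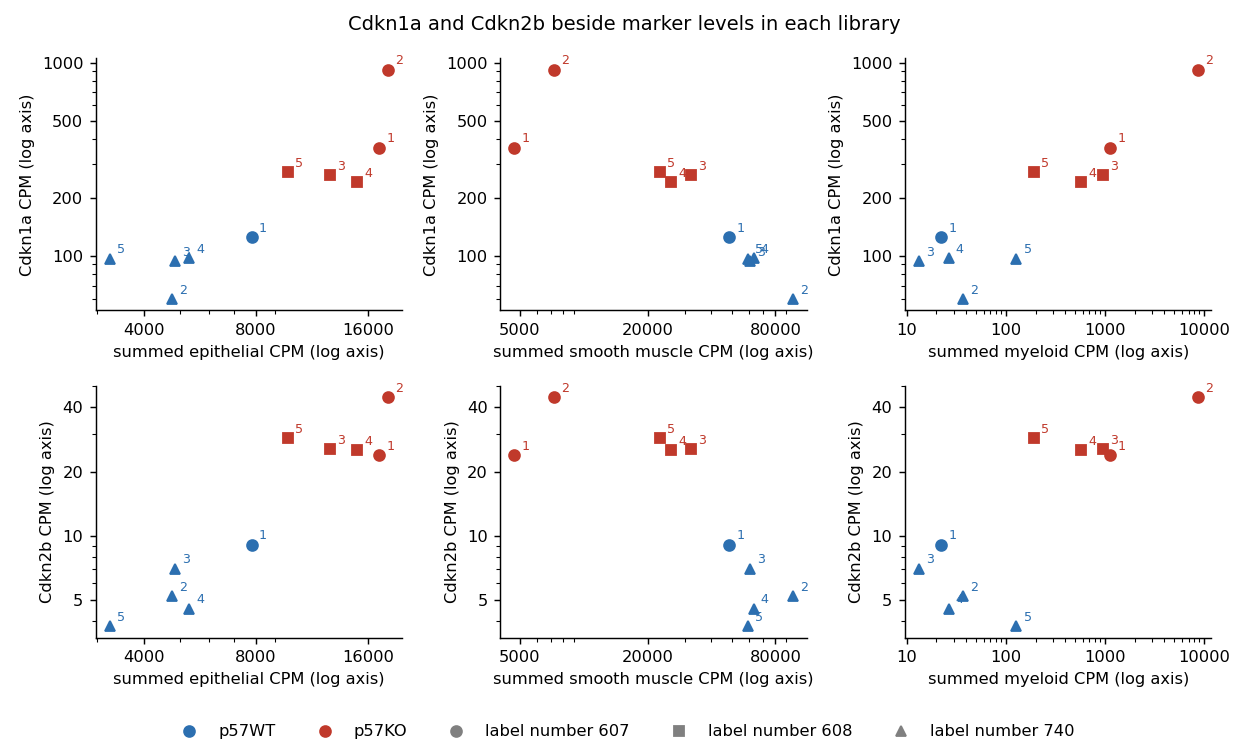
Cdkn1a (top) and Cdkn2b (bottom) in CPM against the summed CPM of epithelial, smooth muscle and myeloid markers, all on log axes, with 1 point for each library (p57WT blue, p57KO red) labelled by its replicate number. All 3 marker sums separate the genotypes, and p57KO 2 is highest in Cdkn1a, Cdkn2b, epithelial markers and myeloid markers.

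The stretches just upstream of the annotated starts of Cdkn1a and Cdkn2b are shown because these are the inhibitor genes that rose. They are RefSeq sequence of build GRCm38.p6, 240 bases each and ending 10 bases before the start, for the Cdkn1a starts chr17:29090729-29090968 and chr17:29093519-29093758 (plus strand) and for Cdkn2b chr4:89311043-89311282 (minus strand). Capitals mark every match, on either strand, to the GC box GGGCGG, to a pair of p53 core letters (CATG, then any 6 bases, then CATG) and to the cyclic AMP response element TGACGTCA, which do not overlap here. The motifs were chosen with the results known, the last after the sequence had been read.
Cdkn1a first start: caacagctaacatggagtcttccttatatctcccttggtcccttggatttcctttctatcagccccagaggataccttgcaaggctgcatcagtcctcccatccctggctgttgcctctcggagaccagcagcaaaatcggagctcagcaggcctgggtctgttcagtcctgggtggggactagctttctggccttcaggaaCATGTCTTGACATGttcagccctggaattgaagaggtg
Cdkn1a second start: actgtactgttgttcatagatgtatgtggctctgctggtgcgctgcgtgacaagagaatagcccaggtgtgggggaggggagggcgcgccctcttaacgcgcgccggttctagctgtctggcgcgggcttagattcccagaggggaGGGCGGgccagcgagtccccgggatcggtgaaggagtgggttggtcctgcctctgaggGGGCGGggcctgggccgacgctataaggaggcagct
Cdkn2b start: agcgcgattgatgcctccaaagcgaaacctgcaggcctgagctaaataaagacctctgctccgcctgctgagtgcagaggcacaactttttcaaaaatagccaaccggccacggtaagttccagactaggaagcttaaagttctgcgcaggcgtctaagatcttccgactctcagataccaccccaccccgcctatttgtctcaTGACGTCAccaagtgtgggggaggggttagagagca

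The paired p53 cores lie at -48 to -35 from the first Cdkn1a start, within the stretch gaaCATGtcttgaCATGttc (chr17:29090928-29090947). Its first 10 bases match the p53 consensus decamer at every position and its last 10 bases do not. This core spacing was found in 0.452% of 32534 mouse promoter windows of the same length. The second Cdkn1a start has GC boxes at -104 to -99 and -46 to -41, a motif present in 31.5% of windows. The cyclic AMP response element of Cdkn2b lies at -46 to -39 and is present in 1.44% of windows. RefSeq windows of the inhibitor genes that did not pass held GC boxes too, 3 at the first start of Cdkn2c, 3 at Cdkn2d and 1 at Cdkn1b. The matches are a description of the letters in these windows.

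Cdkn1b (ENSMUSG00000003031, chr6:134920401-134925513, plus strand) encodes p27, the Cip/Kip inhibitor that is controlled largely by protein degradation. Its p57KO 1 to 5 values were 57.8, 51.3, 26.2, 26.2 and 32.8 CPM, and its p57WT 1 to 5 values 28.8, 32.3, 39.9, 31.3 and 35.6 CPM. Only the p57KO libraries of number 607 lay above the p57WT range. The fitted difference was 0.21 on the log2 scale (SE 0.26; 95% limits -0.36 and 0.78, edgeR adjusted p = 0.555), and it turned to -0.19 without p57KO 1 and p57KO 2. With the label number term, which rests on the lone p57WT 1 in the same way, it was 0.92 (edgeR adjusted p = 0.202). Scaled to epithelial markers it was -1.32 and passed (edgeR adjusted p = 0.00297), beside a median of all genes of -1.38.

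Cdkn2c (ENSMUSG00000028551, chr4:109660876-109667189, minus strand) encodes p18, an INK4 inhibitor of CDK4 and CDK6. Its p57KO 1 to 5 values were 3.10, 10.04, 11.0, 9.32 and 15.6 CPM, and its p57WT 1 to 5 values 8.42, 23.7, 14.9, 22.8 and 13.4 CPM. In each genotype replicate 1, of label number 607, was lowest, and the groups overlapped. The fitted difference was -0.76 on the log2 scale (SE 0.40; 95% limits -1.63 and 0.11, edgeR adjusted p = 0.151). Scaled to epithelial markers it was -2.17 and passed (edgeR adjusted p = 0.00195), beside the all-gene median of -1.38, and with a smooth muscle covariate it turned to 0.38 (edgeR adjusted p = 0.713).

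Cdkn2d (ENSMUSG00000096472, chr9:21288410-21291407, minus strand) encodes p19, another INK4 inhibitor of the same kinases. Its p57KO 1 to 5 values were 17.5, 79.0, 39.6, 34.2 and 32.2 CPM, and its p57WT 1 to 5 values 21.9, 39.0, 23.0, 22.0 and 23.1 CPM. The lowest and the highest of all 10 values were p57KO 1 and p57KO 2, and p57WT 2 lay above the other p57WT libraries. The fitted difference was 0.65 on the log2 scale (SE 0.35; 95% limits -0.11 and 1.40, edgeR adjusted p = 0.159), and it was at -0.85 scaled to epithelial markers, beside the all-gene median of -1.38. It was 0.85 and passed without p57KO 1 (edgeR adjusted p = 0.0436), and it was 0.30 without p57KO 2 (edgeR adjusted p = 0.445). For Cdkn1b, Cdkn2c and Cdkn2d the exact permutation test gave p = 0.460, 0.103 and 0.190.

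**Figure D3:**
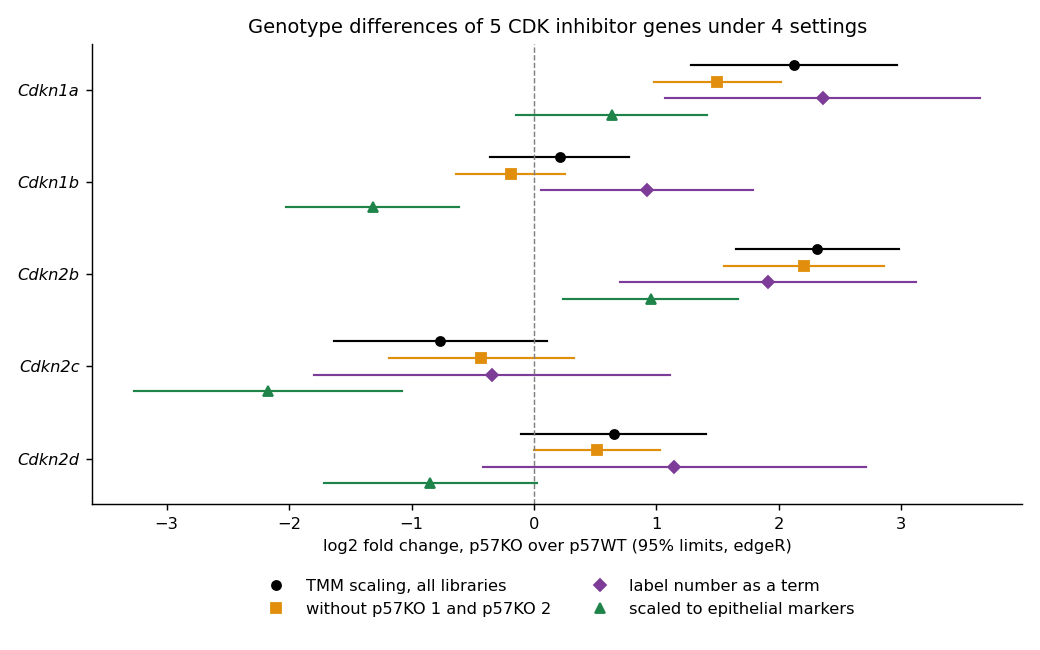
Log2 fold change of p57KO over p57WT with 95% limits from edgeR for the 5 inhibitor genes other than Cdkn1c under 4 settings. Cdkn1a and Cdkn2b lie above 0 in all 4 settings, with limits that reach below 0 only for Cdkn1a scaled to epithelial markers, while Cdkn1b and Cdkn2d change sign between settings.

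To compare levels between genes, CPM was divided by the length of all annotated exons of a gene in kilobases. Wild-type cells held far more Cdkn1c than any other inhibitor on this scale. Per-length levels in p57WT were 113 ± 63.0 for Cdkn1c, 26.5 ± 6.52 for Cdkn1a, 16.4 ± 4.72 for Cdkn2d, 7.38 ± 0.95 for Cdkn1b, 6.19 ± 2.42 for Cdkn2c and 4.28 ± 1.53 for Cdkn2b (CPM per kilobase, SD, n = 5). The p57WT ranges of Cdkn1c and Cdkn1a did not overlap, nor did those of Cdkn2d and Cdkn1b, whereas the other neighbours in this order overlapped.

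In p57KO the order was Cdkn1a at 115 ± 80.7, Cdkn2d at 25.7 ± 14.6, Cdkn2b at 21.3 ± 6.20, Cdkn1b at 8.53 ± 3.24, Cdkn2c at 3.65 ± 1.67 and Cdkn1c at 0.41 ± 0.37 (CPM per kilobase, SD, n = 5). Cdkn1a led in every p57KO library and Cdkn1c in every p57WT library. Cdkn2b moved from the last place to the third, where its range overlapped that of Cdkn2d but not that of Cdkn1b.

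The mean share of Cdkn1c in the per-length sum of the Cip/Kip genes was 74.7% (66.0% to 86.5%) in p57WT and 0.412% (0.0463% to 0.875%) in p57KO. The mean share of Cdkn1a was 19.7% (10.5% to 28.8%) in p57WT and 91.8% (88.1% to 95.8%) in p57KO. Shares depend on the length used, which for Cdkn1a is 3553 bases over all exons but 2080 in its longest transcript. Of the summed INK4 level, Cdkn2b made up 16.6% (10.04% to 27.8%) in p57WT and 44.0% (37.3% to 58.2%) in p57KO. Cdkn2d made up the largest mean share of the INK4 sum in each genotype, 60.6% in p57WT and 48.6% in p57KO.

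The Cip/Kip sums of p57KO 1 to 5 were 116, 269, 79.6, 73.2 and 84.0 CPM per kilobase, and those of p57WT 1 to 5 were 122, 97.7, 132, 123 and 259.6. The groups overlapped, with means of 124 ± 82.6 and 147 ± 64.3 (SD, n = 5 each). The order of these means turned with the length used, to 206 in p57KO and 174 in p57WT with the longest transcript of each gene, so it does not show which genotype held more. Without p57KO 2 the p57KO mean was 88.1. The INK4 sums of p57KO 1 to 5 were 29.4, 86.1, 47.6, 43.3 and 46.9 CPM per kilobase, and those of p57WT 1 to 5 were 23.6, 37.4, 25.2, 25.7 and 22.4. Only p57KO 1 fell within the p57WT range of the INK4 sum.

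**Figure D4:**
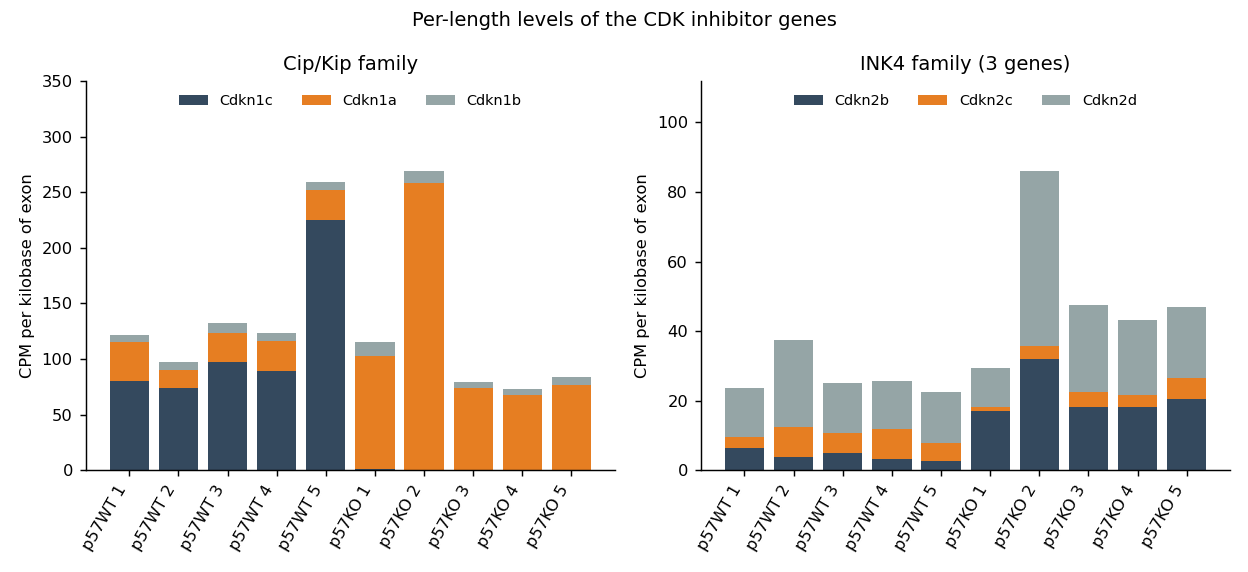
Stacked CPM per kilobase of exon of the Cip/Kip genes (left) and the 3 INK4 genes (right) in each library. Cdkn1c makes up most of the Cip/Kip bar in the p57WT libraries and Cdkn1a in the p57KO libraries, and p57KO 2 and p57WT 5 have the tallest Cip/Kip bars.

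Of 9 kinase and cyclin genes tested whose products the inhibitors bind, 2 rose and 3 fell, which is 55.6% called against 36.5% of all genes, with a median log2 fold change of 0.16 against 0.08. Ccnd1, which encodes cyclin D1, fell by 1.80 on the log2 scale (edgeR adjusted p = 8.33e-04), from a mean of 83.1 ± 13.2 CPM in p57WT to 23.9 ± 10.2 CPM in p57KO (SD over 5 libraries). Cdk6, a kinase partner of D cyclins and a target of INK4 proteins, fell by 1.31, and Ccnd3, named after its value was seen, fell by 0.97. Ccna2, the cyclin of S phase and G2, rose by 1.17 and Cdk1, the mitotic kinase, by 0.77 on the log2 scale, and scaled to epithelial markers they were at -0.14 and -0.64, where the median of all genes was -1.38. The calls of Cdk6, Cdk1 and Ccna2 were lost when the ribosomal RNA class entered the fit (edgeR adjusted p = 0.0939, 0.115 and 0.0507). Ccnd2 is not analysed here.

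Genes that act in the turnover of CDK inhibitors included 4 that rose and 1 that fell of 15 tested (33.3% called, near the 36.5% of all genes, median 0.19). Cdc20, an activator of the anaphase-promoting complex, rose by 1.52 on the log2 scale. Scaled to epithelial markers it was at 0.09 and lost its call (edgeR adjusted p = 0.849). Skp1a and Rbx1, shared subunits of cullin ubiquitin ligases, rose by 1.09 and 0.75, and scaled to epithelial markers they were at -0.38 and -0.74 beside the all-gene median of -1.38. Both calls were lost with the ribosomal RNA term (edgeR adjusted p = 0.153 and 0.181), and that of Rbx1 also without p57KO 4, p57WT 3 or p57WT 4 (edgeR adjusted p from 0.0507 to 0.0580). Cks1b, the cofactor that helps the Skp2 ligase recognise p27, rose by 0.78 and was named after its value was seen. Rnf123, a ligase subunit for p27 in G1, fell by 1.23. Skp2, chosen for its role, was at -0.41 (edgeR adjusted p = 0.268).

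Of 20 transcription and chromatin factors known to control inhibitor genes, 3 rose and 1 fell (20% called against 36.5% of all genes, median -0.12). Cdx2, an intestinal homeobox factor, rose by 1.21 and Smad2, a mediator of transforming growth factor beta signals, by 0.72 on the log2 scale, and scaled to epithelial markers they were at -0.061 and -0.72 beside the all-gene median of -1.38. The call of Smad2 was lost with the ribosomal RNA term (edgeR adjusted p = 0.0792). Ring1, a Polycomb subunit, fell by 0.88. Hes1, a Notch target and repressor, passed at 2.48 (edgeR adjusted p = 0.0471) but rested on p57KO 1, at 2424 CPM beside 48.1 to 305 CPM in p57KO 2 to 5. Leaving p57KO 1 out gave 0.39 (edgeR adjusted p = 0.509), and leaving out p57KO 2, or each p57WT library in turn, gave adjusted p from 0.0551 to 0.0921 in edgeR. Trp53, the gene of p53 and chosen for its role, had means of 118 ± 26.7 CPM in p57KO and 109.9 ± 19.7 CPM in p57WT (SD over 5 libraries), a log2 difference of 0.10 (edgeR adjusted p = 0.748).

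Of 17 targets of p53 other than Cdkn1a that were tested, 5 rose, 3 fell and 9 did not pass. That is 47.1% called against 36.5% of all genes, with a median log2 fold change of 0.41 against 0.08. Scaled to epithelial markers, 0 of these 17 targets were called higher and 11 lower. Over all 16710 genes tested, 407 were called higher and 11097 lower in that setting, with a median of -1.38. Pmaip1 encodes the cell death protein Noxa, and its p57KO 1 to 5 values were 37.0, 84.6, 76.7, 68.5 and 22.2 CPM and its p57WT 1 to 5 values 17.3, 14.2, 12.6, 9.68 and 6.99 CPM. The groups did not overlap, at a log2 difference of 2.25 (edgeR adjusted p = 0.00111). Perp, a desmosomal membrane protein gene, rose by 1.45 and Gdf15, a stress cytokine gene, by 2.13 on the log2 scale. In contrast Zmat3, an RNA-binding protein gene, fell by 1.82, Phlda3, an inhibitor of Akt signalling, by 1.67 and the death receptor gene Tnfrsf10b by 1.45, the last pair named after their values were seen. The calls of Perp and Zmat3 were lost with the ribosomal RNA term (edgeR adjusted p = 0.0586 and 0.0603). Scaled to epithelial markers, Pmaip1, Perp and Gdf15 were at 0.85, 0.04 and 0.67 and lost their calls (edgeR adjusted p = 0.0513, 0.900 and 0.300). Mdm2, the ligase gene of p53 turnover and chosen for its role, was at -0.16 (edgeR adjusted p = 0.760).

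Of 13 other genes that restrain CDKs, 2 rose and 0 fell (15.4% called against 36.5% of all genes, median -0.08). An unadjusted edgeR p below 0.05 was found for 2 of the 13, against 7923 of all 16710 genes tested. Cdkn3, a phosphatase that acts on CDKs and is no member of the inhibitor families, ranged over 56.1 to 92.4 CPM in p57KO against 22.9 to 31.9 CPM in p57WT (log2 difference 1.49, edgeR adjusted p = 4.66e-04). Cdk2ap2, which encodes a CDK2-associated protein, rose by 1.54. Scaled to epithelial markers, Cdkn3 and Cdk2ap2 were at 0.06 and 0.07 and lost their calls (edgeR adjusted p = 0.846 and 0.855). The median of all genes was -1.38 in that setting. Hexim2, an inhibitor of the transcriptional kinase P-TEFb, was at -0.54 (edgeR adjusted p = 0.273) and Cables2 at -0.41 (edgeR adjusted p = 0.302). With the label number as a term no gene of the 5 lists passed in edgeR, where 1009 of all 16710 genes tested passed.

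**Figure D5:**
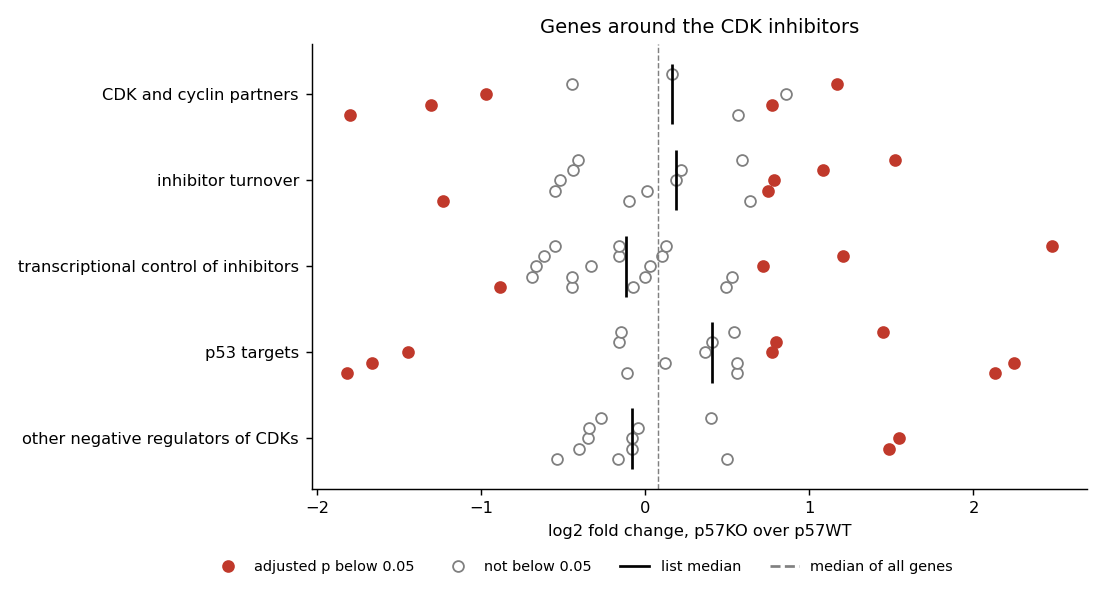
Log2 fold change of p57KO over p57WT for each tested gene of 5 lists around the inhibitors, filled red where the edgeR adjusted p was below 0.05. The p53 targets spread from -1.82 to 2.25, and the list medians (black lines) run from -0.12 to 0.41 beside a median of all genes of 0.08 (dashed line).

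The genes most like each inhibitor across libraries were found from log2 CPM after the mean of each genotype was subtracted, among 11339 genes of at least 5 CPM. These values are a description over 10 libraries that differ in depth and cell content. As the top 2 of so many genes they are high by selection, and no chance level was computed. Psmb8, an immunoproteasome subunit gene, and Bcl3, a regulator of NF-kappaB, were most like Cdkn1a, at Pearson r of 0.95 and 0.94, or 0.80 and 0.84 without p57KO 2. For Cdkn2b they were Tpd52-ps and B4galnt1 at 0.92 and 0.91, and for Cdkn1c Pik3c2b and Cdc73, each at 0.96. The Cdkn1c deviations in p57KO rest on only 4 to 24 counts in each library. Atp2b1 and Safb2 were most like Cdkn1b at 0.97 each, Map1lc3a and Tlcd2 most like Cdkn2c at 0.93 each (0.86 and 0.83 without p57KO 1), and Ntpcr and Rasl11b most like Cdkn2d at 0.98 and 0.97.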

How the data were processed

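Sorted cells of 10 intestines were sequenced. Per the file headers, the authors deposited 1 table with raw read counts in each of the 10 libraries. It held 20579 genes, with a smallest mean normalized count of 3.00, and does not state which genes were left out. It also held a normalized signal, which the authors made by dividing counts by 1 size factor per library, and the authors' comparison as log2 fold changes with standard errors, a Wald score and p-values, per the file headers. In the authors' deposited table Cdkn1a had a log2 fold change of 2.15 and Cdkn2b 2.35. The submitters' processing notes name STAR 2.6.1d, HTSeq 1.0, DESeq2 1.22.2 and mm10. The annotation and strand setting are not given in the sources used here. Libraries held 8037887 to 26809231 counts, at which 3 counts equal 0.112 to 0.373 CPM.

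Counts were fitted with edgeR 4.0.16 in R 4.3.3 (TMM, the tool's expression filter, genotype as the only term), which removed 3869 genes. The fit was tested on simulated data with the same dispersion for every gene and few changed genes. That setting is simpler than these data, where many genes differ and cell type markers separate the genotypes. Limits are 95%. Coordinates and exon lengths came from GENCODE M21, which matched 20558 identifiers. No 2 libraries of a genotype were alike to within sampling noise (lowest chi-square per degree of freedom 10.2). The members, lists and alternatives were chosen with earlier results of these data known. Named genes were the 6 members, up to 4 genes of each list with the smallest p and the 2 genes most like each member, and others are marked where they are named. Alternatives were DESeq2 1.42.0, limma 3.58.1 (voom), other scalings and terms, no filter and leaving out libraries.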

Additional observations from a re-analysis of the deposited data

Results flagged for a closer look

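Each genotype's 5 values were checked for a library standing apart from the rest, by the gap to its nearest neighbour relative to the whole range. Chance sets apart about 1 in 20 groups of normally distributed values, and 7 of 16 groups were set apart here. These groups include family sums of the same genes and are not independent, so the 2 rates cannot be compared directly. Cdkn1c stood out in p57WT 5, at 458 CPM against 198 CPM in the next library. In p57KO 2, Cdkn1a was at 916 CPM against 362 CPM and Cdkn2b at 44.6 CPM against 28.6 CPM in the next library. Cdkn2d was at 39.0 CPM in p57WT 2 against 23.1 CPM in the next.

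The per-length sums of the families followed these genes. The Cip/Kip sum was 269 CPM per kilobase in p57KO 2 against 116 in the next library, and 259.6 in p57WT 5 against 132. The INK4 sum was 37.4 in p57WT 2 against 25.7. Library p57KO 2 also had the highest summed myeloid (8616 CPM), epithelial (18178 CPM) and erythroid (1134 CPM) markers of all. Library p57WT 2 had the highest summed smooth muscle markers, 96835 CPM. It was also the deepest p57WT library, at 25527896 counts, and the sole p57WT library with a low ribosomal RNA share, 0.0301%. Library p57WT 5 had the highest summed fibroblast markers, 8209 CPM. What these features contribute to the flagged values was not tested.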

How the results depend on the processing

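The 6107 calls over all genes (3226 higher, 2881 lower) became 1009 with the label number as a term, 2959 with a term for the class of ribosomal RNA share, 11504 scaled to epithelial markers (407 higher, 11097 lower), 1740 with the smooth muscle covariate and 714 with the myeloid covariate. The higher share of calls was 52.8%, and 18.1%, 40.8%, 3.54%, 63.3% and 57.7% under these settings. DESeq2 called 7884 and limma voom 6394 genes. Leaving out 1 library gave 4763 to 7141 calls. Replicate numbers did not pair the libraries, since deviations of same-numbered libraries correlated at -0.13 to 0.20. With the replicate block 5804 genes were called, Cdkn1a was at 1.90 and Cdkn2b at 2.34, and no inhibitor gene gained or lost its call, while Ccna2 (1.06, edgeR adjusted p = 0.0562) and Hes1 (0.86, edgeR adjusted p = 0.397) lost theirs.

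Cdkn1c passed under every alternative, at -9.79 to -7.28. Cdkn1a kept its sign in all and lost its call scaled to epithelial markers (0.63) and with the smooth muscle (0.57) or myeloid covariate (0.57). Cdkn2b lost its call with the label number (1.91) and the myeloid covariate (1.99). Cdkn1b turned to -1.32 scaled to epithelial markers, where it passed (edgeR adjusted p = 0.00297), -0.80 and -0.54 with the smooth muscle and myeloid covariates, and -0.19 without p57KO 1 and p57KO 2. Cdkn2c was at -2.17 and passed scaled to epithelial markers, and was at 0.38 with the smooth muscle covariate. Cdkn2d turned to -0.85 scaled to epithelial markers and -0.18 with the myeloid covariate. Leaving out 1 library gave 1.59 to 2.28 for Cdkn1a, 2.13 to 2.52 for Cdkn2b, 0.03 to 0.34 for Cdkn1b, -0.97 to -0.53 for Cdkn2c and 0.30 to 0.86 for Cdkn2d. The causes were not tested, and neither covariate can be told apart from genotype.

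Scaled to epithelial markers, Cdk1 was at -0.64, Ccna2 at -0.14, Skp1a at -0.38, Rbx1 at -0.74, Cdx2 at -0.061 and Smad2 at -0.72. Cdc20, Hes1, Pmaip1, Perp, Gdf15, Cdkn3 and Cdk2ap2 stayed above 0 in this setting but lost their calls. Called lower were 5 of 9 kinase and cyclin genes, 10 of 15 turnover genes and 18 of 20 control factors. So were 11 of 17 p53 targets and 10 of 13 other CDK regulators. Called higher were 0 genes of each list. Over all 16710 genes tested, 11097 were called lower and 407 higher, with a median of -1.38. With the label number Ccna2 was at -0.034, and 0 genes of each list passed in edgeR, where 1009 of all 16710 genes tested passed. Hes1 turned to -2.76 and -0.53 with the smooth muscle and myeloid covariates and -0.30 without p57KO 1 and p57KO 2, and Cables2 to 0.10 with the ribosomal RNA term. Depth limits Cdkn1c most, with 4 to 24 counts in each p57KO library, while the other 5 inhibitor genes had at least 32 counts in every library.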
